A study of Solanum tuberosum with 8 samples.

Results

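The genes described here were listed close to 0 in dormant potato buds and at a clearly measurable level once the buds had begun to sprout. They are the tested genes with a dormant value below 0.5 and a nondormant value of at least 4, outside chromosome 1 at 1 to 2 Mb, chromosome 3 at 16 to 21 Mb and chromosome 4 at 6 to 7 Mb. The rule selected 82 of 19664 tested genes (0.417%), in a table of 35091 genes, and the 3 windows removed 0 genes. None of the 15427 genes without a test met both limits. The values are read as FPKM (fragments scaled to transcript length and to the mapped fragments of a library), so levels can be compared between genes of different length. Both limits use the group values, so the direction of the difference, its fold and the authors' calls from the same contrast are given as a description of these genes.

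A potato tuber is a swollen underground stem, and its eyes hold the buds from which new shoots grow. After harvest the bud meristems pass through dormancy, a state in which cells stay viable but growth and division are arrested even when conditions would allow growth. Abscisic acid is known for its part in keeping tuber buds dormant, and gibberellins and cytokinins for promoting the outgrowth of the sprout. When dormancy ends, cell division, leaf formation and stem elongation resume, and genes little transcribed in the resting bud can come into use.

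The study sequenced RNA of 4 dormant and 4 nondormant samples of meristem, scraped out of the eyes of Russet Burbank tubers, a potato cultivar grown in the field. The dormant samples were cut about 2 weeks after harvest in the fall of 2005, 2007, 2009 and 2010. Their nondormant counterparts came from tubers kept at 4 °C until the first sprouts showed, in the spring of 2006, 2008, 2010 and 2011. Cold storage and time since harvest differ between the groups together with dormancy and cannot be told apart from it. All samples are excised bud tissue of a single cultivar, and a bud can hold leaf primordia and adjoining tuber tissue as well as meristem. The authors' table gives a single value per gene and group, with no value for a single sample, so no error can be attached to a level, and it was not possible to see whether the 4 samples of a group were alike. In such bulk tissue, fewer cells of a type and less RNA per cell cannot be told apart. Read depth per sample is unknown. No gene names stand beside the identifiers, 0 of the 82 genes matched the reference gene table, and tissue markers could not be checked. Genes are therefore given by their position in the authors' table (genome build: not given in the sources used here).

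The 82 genes stood at a median of 0.189 FPKM in dormant meristems, from a listed 0 to 0.474 FPKM. In nondormant meristems their median was 5.65 FPKM, with a range of 4.01 to 54.1 FPKM. Most were of modest level after dormancy: 62 lay below 8 FPKM, 14 reached 10 FPKM, and 9 were at or above the median nondormant value of all tested genes, 11.3 FPKM. Together they made up 0.0734% of the summed nondormant FPKM of the table. For the 75 genes above 0 in both groups, the median nondormant-over-dormant fold was 32.3 (log2 ratio 5.02), and the folds began at 8.61. Across all tested genes above 0 in both groups the median log2 ratio was -0.05.

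**Figure D1:**
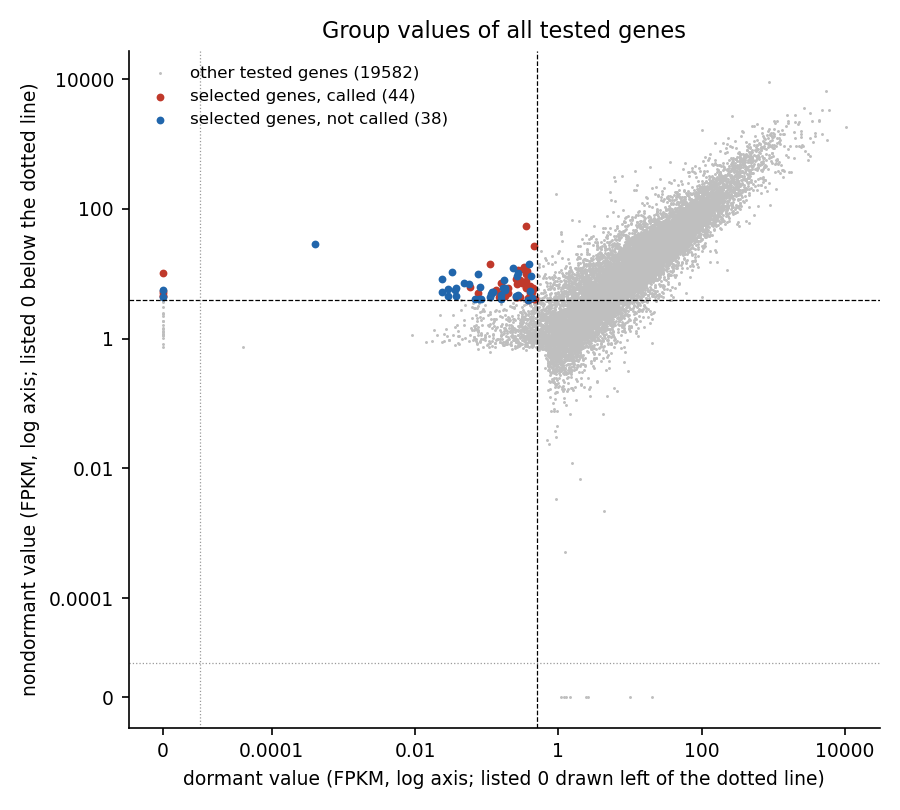
Nondormant against dormant value (FPKM, log axes) of every tested gene, with the 82 selected genes in red where the authors called them (44) and blue where they did not (38); dashed lines mark 0.5 FPKM and 4 FPKM, and listed zeros are drawn beyond the dotted lines. The selected genes lie left of the main cloud, mostly between 4 and 15 FPKM in nondormant meristems.

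Most tested genes with so low a dormant value stayed below 4 FPKM after dormancy. All 619 tested genes below 0.5 FPKM in dormant meristems had higher nondormant values, of 0.627 FPKM or more. In nondormant meristems 133 of them were below 1 FPKM and 404 lay from 1 to 4 FPKM. The 82 selected genes (13.2%) reached 4 FPKM. Genes low in both groups may be among the 15427 without a test. Nothing is therefore read from the common direction of the 619, and these shares hold for tested genes only. The reverse limits, below 0.5 FPKM in nondormant and at least 4 FPKM in dormant meristems, were met by 12 tested genes. The side with low dormant values held the larger number at every pair of limits tried, counted over all tested genes with no window left out. With a low limit of 0.25 FPKM and a high limit of 8 FPKM the numbers were 7 and 2, and with limits of 1 and 2 FPKM they were 440 and 161. After quantile normalization of the group values the selected genes numbered 60 and the reverse genes 17. The highest value among the reverse genes was 20.5 FPKM in dormant meristems, for a locus listed at 0 in nondormant meristems on chromosome 5 from 8560393 to 8566904, which shares its interval with another gene and was not called.

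The authors' deposited table called 44 of the 82 genes (53.7%) at a q of 0.05 or less, all higher in nondormant meristems, where 7.17% of all tested genes were called in that direction. Of the 127 tested genes at least 8-fold higher in nondormant meristems from 0.5 FPKM or more in dormancy, 114 (89.8%) were called. Of the 12 reverse genes, 6 were called. All 3 sets were chosen on the same contrast, so nothing is read from these shares. The 44 called genes among the 82 made up 3.12% of all nondormant-higher calls. Their median nondormant value was 5.71 FPKM and their median dormant value 0.304 FPKM. The 38 uncalled genes had nearly the same nondormant median, 5.63 FPKM, and a lower dormant median, 0.112 FPKM. The median fold of those above 0 in dormant meristems was 44.2 in the uncalled and 25.3 in the called genes, so the uncalled genes had the larger listed folds.

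**Figure D2:**
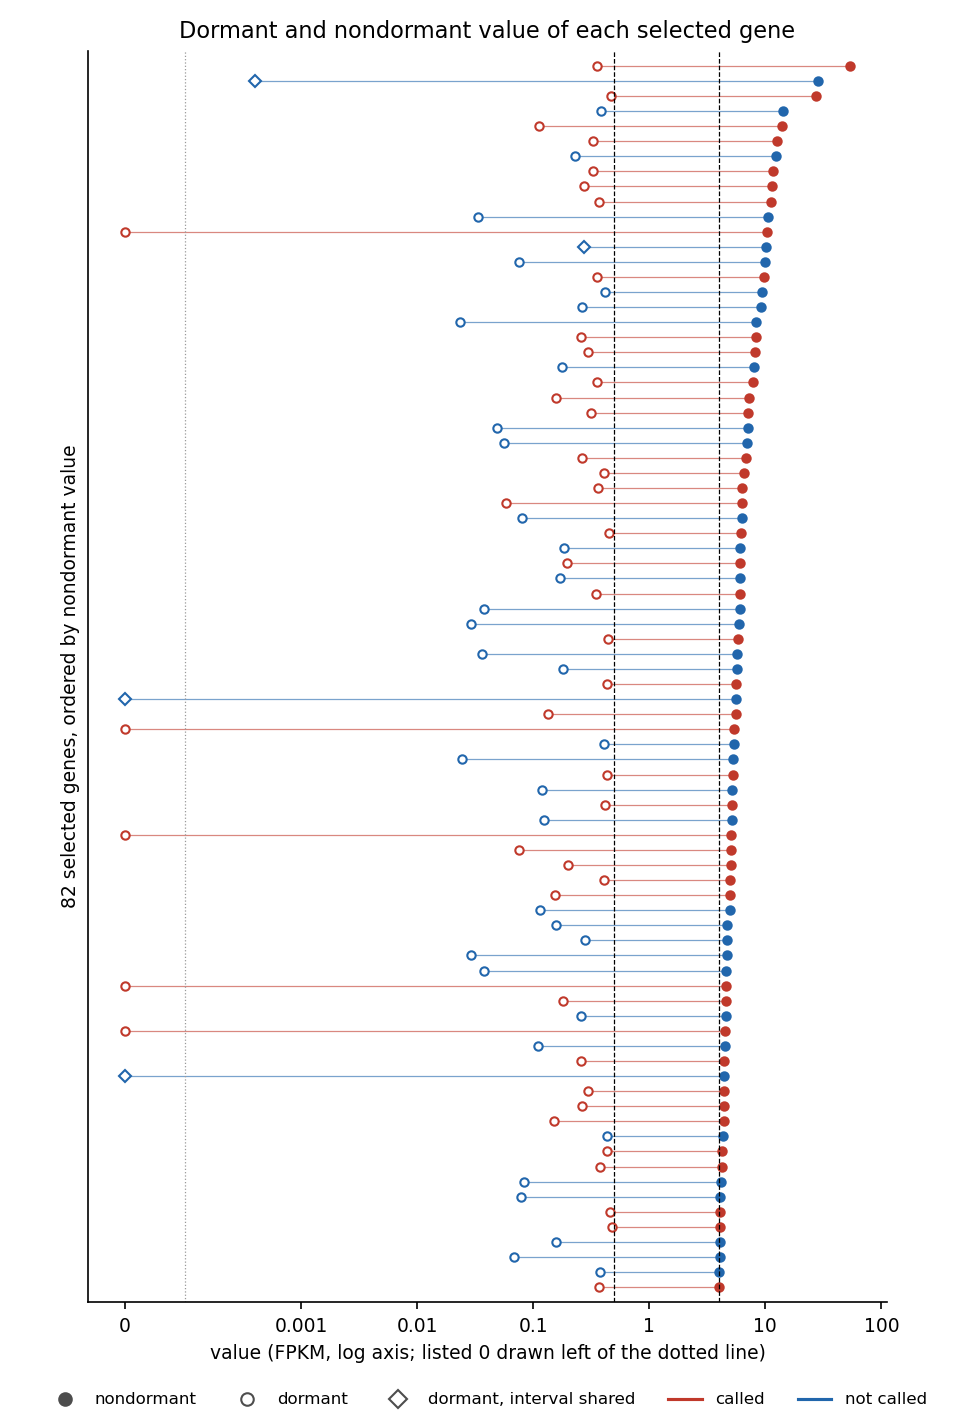
Dormant (open) and nondormant (filled) value of each of the 82 selected genes in FPKM on a log axis, ordered by nondormant value, red where called and blue where not, with diamonds for genes that share their interval; a listed 0 is drawn left of the dotted line. The nondormant values fall from 54.1 to 4.01 FPKM, and the open symbols of uncalled genes reach further left than those of most called genes.

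The highest nondormant value belonged to PGSC0003DMG400002857 on chromosome 4 from 250809 to 253005, which the authors' table lists at 54.1 FPKM after dormancy against 0.354 FPKM in dormancy. That value exceeded those of 85.9% of tested genes in nondormant meristems. PGSC0003DMG400044996, on chromosome 1 from 51097741 to 51098212, had 27.1 and 0.465 FPKM (58.3-fold), and it was close to both the dormant limit and the call threshold, with a q of 0.0487 in the authors' deposited table. Next among the called genes was a locus on chromosome 11 from 10249855 to 10253310, which rose from 0.112 to 14.04 FPKM, a 126-fold difference with a q of 0.0362 in the authors' deposited table. The nondormant value was 12.7 FPKM and the dormant value 0.329 FPKM on chromosome 3 from 36131612 to 36134628. The locus on chromosome 4 from 15082949 to 15086500 stood at 11.7 and 0.326 FPKM. On chromosome 8 from 39563668 to 39567748 they were 11.4 and 0.275 FPKM, and on chromosome 6 from 2056587 to 2057562 they were 11.1 and 0.369 FPKM. These last 4 loci differed 30.2-fold to 41.4-fold, and their q ran from 0.00179 to 0.00903 in the authors' deposited table. The other genes among the 12 highest are described with the uncalled genes and with those listed at 0.

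At the strictest end, 15 of the 82 genes carried the smallest p of the authors' deposited table, 5e-05, which 549 tested genes share (q = 0.00179). They had dormant values from a listed 0 to 0.418 FPKM. Besides the loci on chromosomes 3, 6 and 8 above, they included a locus on chromosome 3 from 26742220 to 26746464 with 9.79 and 0.357 FPKM. A locus on chromosome 2 from 27010082 to 27012631 had 8.31 and 0.257 FPKM, and another on that chromosome, from 21697673 to 21701879, had 6.86 and 0.262 FPKM. At a q under 0.01 the authors' deposited table keeps 27 of the 82 genes, where 3.59% of all tested genes pass in that direction. Between a q of 0.05 and 0.1 lay 4 further genes.

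Listed zeros behaved unlike very small values. In dormant meristems 7 of the 82 genes were listed at 0, and they are given no fold, because a ratio to 0 is undefined. All 7 were tested by the authors, and how a listed 0 arose is not known here. The 5 of these with an interval of their own were called, each with the smallest p of the authors' deposited table. The highest of the 5 reached 10.2 FPKM after dormancy, on chromosome 2 from 25727503 to 25728667. On chromosome 7, a locus from 52579294 to 52579660 had 5.36 FPKM and another from 43276095 to 43279523 had 4.61 FPKM. The remaining pair stood at 5.08 FPKM on chromosome 9 from 39252602 to 39253750 and at 4.52 FPKM on chromosome 11 from 29122372 to 29122683. The other two genes listed at 0 share their interval with another gene and were not called.

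By contrast, the 10 genes above 0 but below 0.05 FPKM in dormant meristems were all uncalled, with q from 0.224 to 0.524 and 0 with an unadjusted p under 0.05 in the authors' deposited table. Their nondormant values, 4.63 to 28.6 FPKM, covered the values of the 5 called genes listed at 0 except for the lowest 2, and their folds began at 122. The same break ran through all tested genes with such low dormant values. The authors' deposited table called 23 of 23 tested genes listed at 0 in dormant meristems on an interval of their own. It called 0 of the 6 listed at 0 there on a shared interval. Above 0 and below 0.05 FPKM in dormant meristems lay 40 tested genes with the nondormant value higher, 4 of them on a shared interval. Of these 40, 0 were called. Their lowest q was 0.0556, and 6 had an unadjusted p under 0.05 in the authors' deposited table. In the reverse direction, 0 of 10 tested genes above 0 and below 0.05 FPKM in nondormant meristems were called, with 2 at an unadjusted p under 0.05. Calls among the 8 tested genes listed at 0 in nondormant meristems were not counted as a set, but 2 of the 8 met the reverse limits. The locus on chromosome 6 from 52528895 to 52532425, on an interval of its own, had 9.95 FPKM in dormant meristems and was called (q = 0.00179 in the authors' deposited table). The locus on chromosome 5 from 8560393, on a shared interval, was not called. Above 0.05 FPKM the called share of the selected genes differed by dormant value. It was 2 of 8 from 0.05 to 0.1 FPKM and 8 of 18 from 0.1 to 0.2 FPKM. From 0.2 to 0.3 FPKM it was 7 of 12, from 0.3 to 0.4 FPKM 11 of 13, and from there to the limit 11 of 14. The rule used the dormant value, and the called share of all tested genes was not counted in these steps. Nothing is therefore read from the series.

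**Figure D3:**
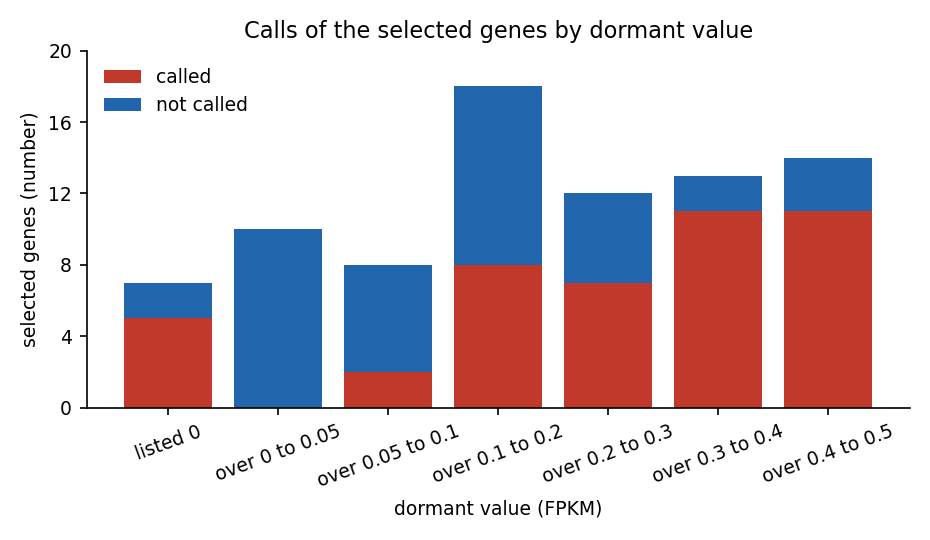
Number of selected genes by dormant value (FPKM), split into called (red) and not called (blue) at a deposited q of 0.05 or less. Of 7 genes listed at 0, 5 were called, and of the 10 genes over 0 to 0.05 FPKM, 0 were called.

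Among the uncalled genes with an interval of their own, the highest nondormant value was 14.3 FPKM, on chromosome 8 from 31298455 to 31299106, against 0.384 FPKM in dormant meristems (q = 0.224 in the authors' deposited table). Elsewhere on that chromosome, from 30611212 to 30611780, the values were 12.3 and 0.230 FPKM (q = 0.152 in the authors' deposited table). A locus on chromosome 6 from 3775027 to 3776068 was listed at 10.5 FPKM against 0.0331 FPKM in dormancy, a 317-fold difference. The locus on chromosome 12 from 55960695 to 55964039 had 10.01 and 0.0760 FPKM, a 132-fold difference. Both had a p of 0.183 and a q of 0.446 in the authors' deposited table. The largest fold on an interval of its own, 357, was found on chromosome 7 from 43868616 to 43869568, at 8.37 and 0.0235 FPKM with a q of 0.261 in the authors' deposited table. In all, 17 of the 82 genes differed at least 64-fold from a value above 0, and 4 of these were called.

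Several uncalled genes carried exactly the same p. A p of 0.072 in the authors' deposited table belonged to 5 of them, with dormant values of 0.0235 to 0.0488 FPKM, and this p is shared by 13 tested genes. From 0.05 to 0.2 the table holds 2127 distinct p-values, with a median of 1 tested gene each, and 13 is the highest number. Another 3 of the selected genes shared a p of 0.183 in the authors' deposited table. The deposited p-values did not follow the deposited test statistic: the locus at 14.3 FPKM on chromosome 8 had a statistic of -4.48 with a p of 0.0549, and the locus on chromosome 6 from 41186024 to 41189479 a statistic of -2.66 with a p of 0.00015 in the authors' deposited table. How the authors' program reached these values was not tested.

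Of the 82 genes, 4 share their printed interval with another gene (4.88%, against 9.23% of all tested genes), and none of the 4 was called. These values are uncertain, because the authors' way of dividing reads between gene models on an interval is not known here. The largest ratio among tested genes above 0 in both groups belongs to these 4: a gene on chromosome 6 from 53977956 to 53981121 was listed at 28.6 FPKM after and 0.000402 FPKM in dormancy, and its partner at 26.4 and 27.5 FPKM. On chromosome 1 from 56049865 to 56059451, the selected gene had 5.59 FPKM and a listed 0, and the partner 20.7 and 20.3 FPKM. Also on chromosome 1, from 72751429 to 72760527, it had 4.41 FPKM and a listed 0 beside a partner at 21.9 FPKM after and 33.1 FPKM in dormancy. In these 3 cases the partner was not called. The fourth, on chromosome 11 from 37012898 to 37013853, had 10.2 and 0.271 FPKM, next to a partner at 1619 and 101 FPKM that was called higher in nondormant meristems (16.1-fold, q = 0.00179 in the authors' deposited table).

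The rule set no limit on locus length, and used position only through the 3 windows. Its limits are on values read as FPKM, which are scaled to transcript length, so they are not independent of length. The selected genes had short loci, with a median span of 1396 bases from start to end, introns included, against 3526 bases for all tested genes. A span under 1 kb was found for 24 of the 82 (29.3%) and for 11.2% of tested genes. Tested genes with nondormant values in the same range as the selected genes had a median span of 4124 bases, and 8.64% of them were under 1 kb. The uncalled genes were shorter, with a median of 1034 bases and 16 of 38 under 1 kb, than the called ones, with a median of 1833 bases and 8 of 44 under 1 kb. The shorter loci were not particular to the lowest dormant values or to this direction. The 127 tested genes at least 8-fold higher in nondormant meristems from 0.5 FPKM or more in dormancy had a median span of 1695 bases. Of them, 37 (29.1%) were under 1 kb. The 12 reverse genes, low in nondormant meristems, had a median span of 1159 bases, with 6 under 1 kb. At the same FPKM a short transcript yields fewer fragments, and the part of locus length in the calls was not tested.

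**Figure D4:**
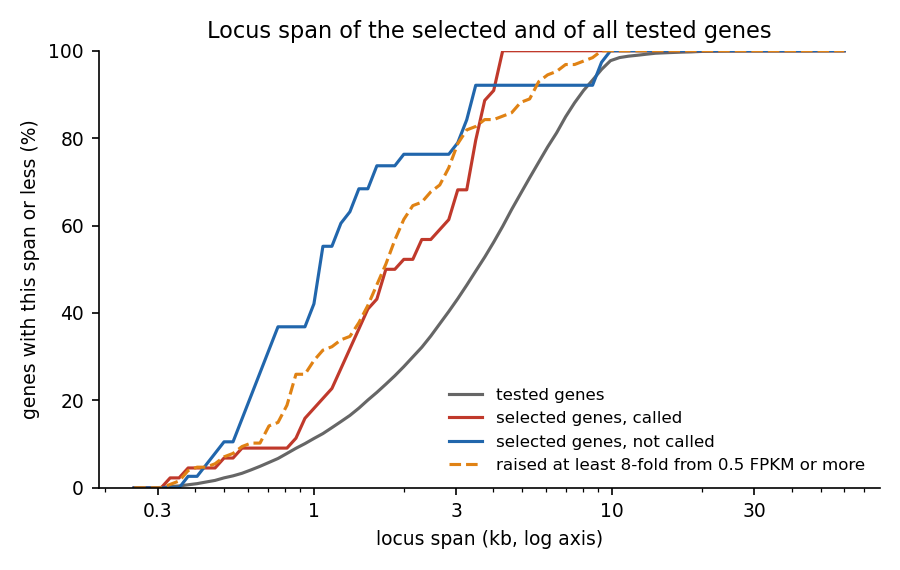
Cumulative share of genes (%) by locus span in kb on a log axis, for all tested genes (grey), the called (red) and uncalled (blue) selected genes, and the 127 genes raised at least 8-fold from 0.5 FPKM or more (orange, dashed). All 3 coloured curves lie left of the grey curve over most of the range, the uncalled genes furthest below 2 kb, with a median of 1034 bases against 3526 bases for tested genes.

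The 82 genes were spread over all 12 chromosomes. Chromosomes 1 and 6 held 12 each and chromosome 8 held 9, and chromosome 5 held the fewest, 3. As a share of tested genes this ran from 0.221% on chromosome 5 to 0.668% on chromosome 6. Chromosome 1 had 3 called genes among its 12, and chromosome 4 had 6 among its 8, beside 44 of all 82. The called share of all tested genes was not counted by chromosome, so nothing is read from this difference. The median distance to the nearest other selected gene was 1578 kb, and 12 of the 82 had another within 100 kb. Untested genes made up 26.8% of the genes directly beside the selected genes in the table, and 27.6% of those beside all tested genes.

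In 5 places a selected gene was directly followed by another among tested genes, which accounts for 10 of the 82. Of all tested genes, 0.417% were selected. In each of the 5, no untested gene lay between them either. The closest pair lay on chromosome 1 with a gap of 0.865 kb, the first gene from 255932 to 256300 at 6.03 and 0.171 FPKM and the second from 257165 to 258436 at 5.20 and 0.119 FPKM. Neither gene of that pair was called. On chromosome 6 the genes from 4211610 to 4213015 (4.99 and 0.405 FPKM) and from 4221806 to 4225494 (7.86 and 0.355 FPKM) were both called, the single pair of the 5 for which this was so. On chromosome 8, the uncalled gene at 12.3 FPKM from 30611212 was followed by another uncalled one from 30619515 to 30620182, with 4.63 and 0.0378 FPKM. The next tested gene there, from 30622378 to 30622934, stood at 34.3 and 2.14 FPKM and was called (16.01-fold). A further pair on chromosome 8 consisted of a called gene from 35455643 to 35456998, at 4.38 and 0.150 FPKM, and an uncalled gene from 35462966 to 35464126, at 4.63 and 0.0289 FPKM. The last pair lay on chromosome 10, where the gene from 26484828 to 26488157 had 4.16 and 0.0834 FPKM and was not called, and the gene from 26546975 to 26548224 had 5.24 and 0.434 FPKM and was. Sequence similarity within the pairs was not examined.

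Around the gene with the highest value, on chromosome 4, 2 of the selected genes lay within 21.04 kb with 4 tested genes between them. The first of the 4, from 257058 to 257382, was listed at 170 FPKM after and 0.919 FPKM in dormancy, which put it above the dormant limit, and it was not called (q = 0.0616 in the authors' deposited table). The following gene, from 257797 to 258590, had 0.847 and 1.20 FPKM. The next pair of genes were at nearly the same level in both states, with 54.9 and 50.2 FPKM from 259414 to 261544 and 17.2 and 17.0 FPKM from 261806 to 262867. The second selected gene, from 270235 to 271848, had 6.90 and 0.0562 FPKM and was not called. Loci with a dormant value near 0 and loci at steady levels lay side by side in this stretch.

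Of the 82 tested genes directly before a selected gene, 5 were themselves selected, and so were 5 of the 82 directly after. Of all tested genes, 0.417% were selected. The remaining neighbours were mostly unlike the selected genes. These were 153 directly flanking tested genes that were not themselves selected, with a median log2 ratio of 0.03 against -0.05 for all tested genes. Of these flanking genes, 14 (9.15%) were called higher in nondormant meristems, beside 7.17% of all tested genes, and 6 (3.92%) higher in dormant meristems, beside 3.75%. At least 8-fold higher nondormant values were found in 10 of the 153 (6.54%), where 1.999% of all tested genes reached this fold. The 153 leave out the selected genes, whereas the 393 tested genes behind the 1.999% include all 82 of them. Of the 10 flanking genes, 3 were called. They were the gene on chromosome 8 from 30622378, the partner gene at 1619 FPKM on chromosome 11, and a gene on chromosome 2 from 42203731 to 42204589 with 38.1 and 3.07 FPKM. The partner gene has the same interval as a selected gene, so it overlaps it. The 10 include the gene at 170 FPKM on chromosome 4, and the other 6 were at 0.981 to 2.10 FPKM in nondormant meristems. Those 6 had dormant values of at most 0.0736 FPKM, so they met the dormant limit and not the nondormant one. At the places further out, up to 3 from a selected gene, the median log2 ratios lay between -0.19 and 0.09.

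**Figure D5:**
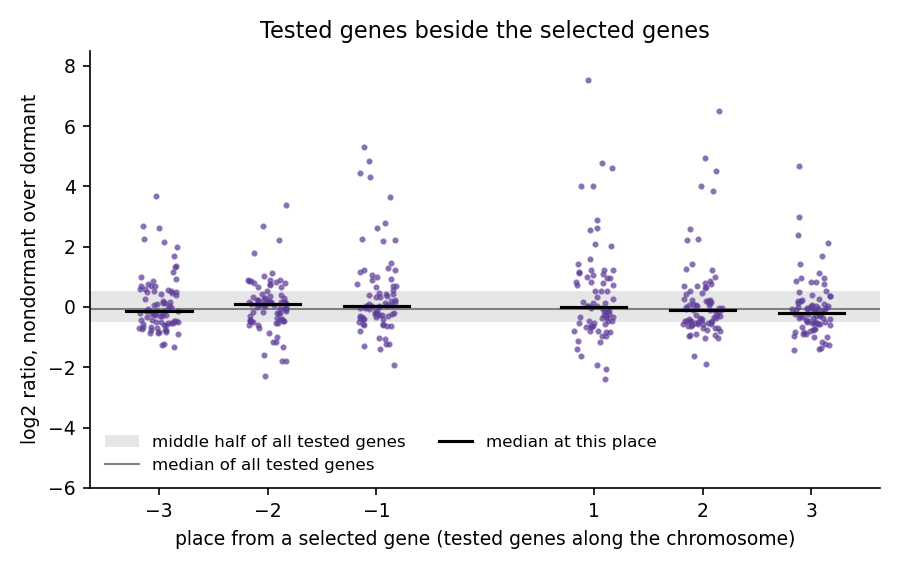
Log2 ratio of nondormant over dormant FPKM for tested genes up to 3 places before and after a selected gene along the chromosome, without the selected genes themselves; black bars are medians at each place, and the grey line and band are the median and the middle 50% of all tested genes. The medians stay between -0.19 and 0.09, and most ratios above 4 lie at the first and second places.

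Both limits cut through a continuous range of values. Just inside the dormant limit, the genes had 0.474, 0.465 and 0.455 FPKM in dormant meristems. Just outside it lay tested genes at 0.514 FPKM (2 genes) and 0.527 FPKM, with nondormant values of 4.69 to 9.65 FPKM. At the nondormant limit the last genes inside had 4.01 (2 genes) and 4.03 FPKM, and the first outside had 3.97 (2 genes) and 3.93 FPKM.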

How the data were processed

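A single comparison table covers the series and sets 4 nondormant against 4 dormant meristem samples. Groups follow the tissue label. Per the file headers, each gene has 2 group values, a statistic, a p-value with its q-value, and a status. The authors' group values are taken to be FPKM, from the column layout, since no unit is printed. The deposited statistic is a score whose range is not fixed. Aligner, build, annotation and pooling: not given in the sources used here. Tested genes have the status OK, and calls are a deposited q of 0.05 or less.

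The selected genes and lists were chosen with earlier results of these data known. Ratios were recomputed from the deposited values, without a pseudocount in the report and with 0.1 for the median used in the alternatives. No test across samples was possible, since a test needs values per sample, so shares are set beside those of all tested genes. Neighbours are consecutive tested genes by start, and a shared interval is an identical printed start and end.

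Genes were named by rule: the 12 highest nondormant values, all listed zeros and adjacent genes, the lowest q (tied in 15 genes, of which a part is given), the highest uncalled values and those nearest the limits. The flanking genes that differed at least 8-fold, the loci with shared p-values and the reverse genes were chosen after their values were seen. Word lists and tissue markers fixed earlier gave no result, because 0 identifiers matched the RefSeq table of assembly SolTub_3.0, used for names. The selection and neighbour count were tested on simulated data. Python 3.11.15, numpy 2.4.6, pandas 2.3.3 and matplotlib 3.10.9 were used.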

Additional observations from a re-analysis of the deposited data

How the results depend on the processing

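The number of selected genes depends on the limits, as any cut through a continuous range does, and values are called close here when within 1.5 times the reported one (for log2 ratios, the same factor). The reported numbers are 82 genes, 44 called, 7 listed at 0, 10 adjacent to another and a median of 5.65 FPKM in nondormant meristems. With a dormant limit of 0.25 FPKM, 44 genes were selected, 15 of them called and 6 adjacent. With a dormant limit of 1 FPKM, 171 were selected, 123 called and 16 adjacent. Lowering the nondormant limit to 2 FPKM gave 198 genes, 100 called, 12 listed at 0 and a median of 3.39 FPKM, and raising it to 8 FPKM gave 20 genes, 11 called, 1 listed at 0, 0 adjacent and a median of 10.8 FPKM. Quantile normalization left 6 adjacent genes, among 60 selected and 31 called. A q under 0.01 called 27 of the 82. The median log2 ratio over all 82 genes was 4.55 with a pseudocount of 0.1 and 2.50 with a pseudocount of 1, so folds from such low dormant values rest on how values near 0 are treated. Keeping the windows, median scaling, leaving out shared intervals, and counting neighbours among all genes left each of the numbers they bear on close to the reported one. No paired analysis was possible because the table holds no value per sample, and for the same reason no sample could be left out. Without depth per sample, a listed value below 0.5 FPKM cannot be told from absence of the transcript.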
